A study of Arabidopsis thaliana with 6 samples.

Results

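Brassinosteroid synthesis and inactivation is represented by 9 Arabidopsis genes, chosen by their locus numbers from the 32962 genes of the expression table. They are DWF1, DWF4, CPD, DET2, ROT3, CYP90D1, BR6OX1 and BR6OX2, whose enzymes lead to the active hormone, and BAS1, whose enzyme removes it. The study compared 3 libraries of wild type (Col-0) with 3 of EsANAC029-OE, Arabidopsis plants in which EsANAC029, a NAC factor from Elymus sibiricus (a forage grass), is overexpressed. All 6 libraries came from seedlings of 25 days, raised at 25 °C under 16 h of light and 8 h of dark, and mRNA was read as paired ends of 150 bases. The promoter that drives the transgene, the number of lines, the pooling of plants and whether replicates were planted separately are not stated in the sources read here, so p-values measure the spread between these libraries only. The transcript of EsANAC029 was not analysed here.

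Brassinosteroids are steroid hormones that promote cell expansion, and plants with a block in their synthesis are dwarfed with dark, compact leaves. They are made from the plant sterol campesterol through oxidations, mostly by cytochrome P450 enzymes, and are perceived at the cell surface by the receptor kinase BRI1. Active BZR1 and BES1, the transcription factors at the end of the pathway, lower transcripts of several synthesis genes, so the hormone limits its own production, and BAS1 inactivates it by hydroxylation.

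Values are FPKM, which divide reads by transcript length and by a per-library total that the submitters adjusted. Recovered read numbers are given beside low values. The libraries held 19608819 to 21715274 reads in genes. A gene was tested with limma on log2(FPKM + 1) if it reached 1 FPKM in at least 3 libraries, and was called if its p, adjusted over all 17221 tested genes by Benjamini-Hochberg, was under 0.05. EsANAC029-OE replicate 1 was unlike replicates 2 and 3. In it 451 of 17221 tested genes (2.62%) lay under 10% of their value in every other library, against 6 to 43 genes in each of the other libraries. The markers of leaf mesophyll, such as the Rubisco small subunit RBCS1A, summed to 23153 to 28949 FPKM in wild type and to 2222 to 13236 FPKM in EsANAC029-OE, lowest in replicate 1. The 4 root markers summed to at most 1.22 FPKM and the 5 flower markers to at most 3.79 FPKM in any library. The labels name whole seedlings, but defining root markers such as COBL9, EXPA7 and CASP1 were at or near 0. The 4 vascular markers, such as the phloem sucrose transporter SUC2, summed to 136 to 164 FPKM in wild type and to 165, 72.3 and 89.8 FPKM in EsANAC029-OE, with a median log2 fold change of −0.54 and none called (1 had an unadjusted p under 0.05), and their part in the results was not tested.

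Of the 9 genes 8 passed the filter, and 2 of these, DWF4 and CPD, fell in EsANAC029-OE, against 3.58% of all tested genes that were called lower. No member was called higher by limma or by limma-voom on the recovered reads, against 4.31% of all tested genes in limma, and the 4 members with an unadjusted p under 0.05 (28.3% of all tested genes had one) were all lower. All 8 tested members had a negative log2 fold change, from −2.03 for CPD to −0.33 for ROT3, with a median of −1.09 beside −0.00914 over all tested genes. The 3 values of each group lay apart in 4 of the 8 (DWF4, CPD, DET2 and BR6OX2), beside 39.9% of all tested genes, 20.3% lower and 19.6% higher in EsANAC029-OE. The mesophyll markers were lower in every overexpressor library too, and their part in these differences was not tested. In bulk seedlings, fewer cells that express a gene and less transcript per cell cannot be told apart.

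**Figure D1:**
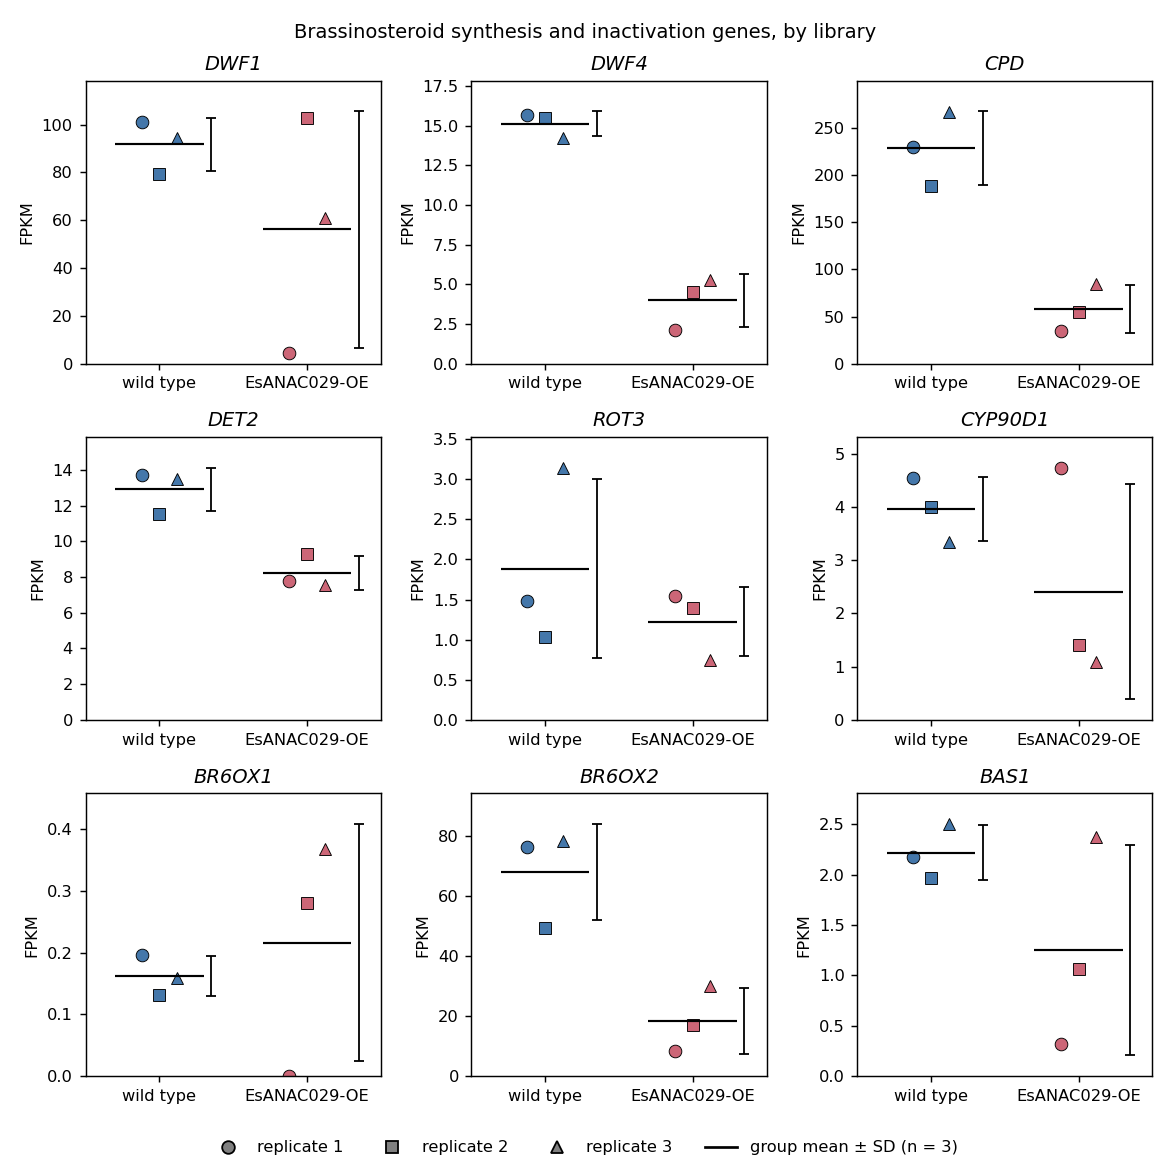
FPKM of the 9 genes in each library (vertical axes, linear and starting at 0), with points shaped by replicate number, horizontal bars at group means and vertical bars for the SD (n = 3). DWF4, CPD, DET2 and BR6OX2 show no overlap between groups, and DWF1 lies at 4.44 FPKM in EsANAC029-OE replicate 1 against 103 FPKM in replicate 2.

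DWF4, also called CYP90B1, is the side-chain hydroxylase that limits the rate of the pathway (AT3G50660, TAIR10 chromosome 3, 18813949 to 18817405, minus strand, 8 exons). Wild type replicates 1, 2 and 3 held 15.6, 15.5 and 14.2 FPKM, and EsANAC029-OE replicates 1, 2 and 3 held 2.13, 4.54 and 5.29 FPKM, the order used throughout. The wild-type libraries lay within a narrow range, and every overexpressor library was far below it. The means were 15.1 ± 0.774 and 3.98 ± 1.65 FPKM (SD, n = 3 each), so the overexpressor held 26.3% of the wild-type level. The log2 fold change was −1.76 (SE 0.284, 95% interval −2.44 to −1.07, limma adjusted p = 0.0252). These values rest on 747 to 889 reads per wild-type library and 139 to 339 per overexpressor library.

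CPD, or CYP90A1, oxidises the steroid ring after the DWF4 step (AT5G05690, chromosome 5, 1702640 to 1706948, minus strand, 8 exons). It had the highest mean level per length of the 9 in both groups, at 230.2, 188 and 267 FPKM in wild type and 34.6, 55.2 and 84.6 FPKM in EsANAC029-OE. The highest overexpressor library was below the lowest wild-type library. The means were 228 ± 39.3 and 58.1 ± 25.1 FPKM, and the log2 fold change was −2.03 (SE 0.349, 95% interval −2.88 to −1.19, limma adjusted p = 0.0279). CPD shares its last 20 bases with NUP88, a nucleoporin gene on the other strand, which was at 3.16 to 5.80 FPKM in all 6 libraries.

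Neither call held in every fit with 1 library left out. Leaving out wild type replicate 1, 2 or 3 or EsANAC029-OE replicate 2 gave limma adjusted p of 0.0704 to 0.118 for DWF4 and 0.0865 to 0.13 for CPD. The log2 fold changes were then −1.73 to −1.86 and −1.91 to −2.16. In those fits, which have fewer degrees of freedom, 59 to 177 of all tested genes were called, against 1359 with all 6 libraries. Without EsANAC029-OE replicate 1 both stayed called (adjusted p = 0.00575 and 0.0144), with log2 fold changes of −1.45 and −1.71. With library size alone as the scaling, which puts the median log2 fold change of all tested genes at 0.31 in place of −0.00914, they were −1.43 and −1.67 (adjusted p = 0.034 and 0.0343).

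BR6OX2, or CYP85A2, carries out the last oxidations and makes brassinolide, the most active hormone (AT3G30180, chromosome 3, 11810726 to 11813883, plus strand, 9 exons). Its values were 76.3, 49.4 and 78.2 FPKM in wild type and 8.35, 16.9 and 30.1 FPKM in EsANAC029-OE. The groups did not overlap, and the overexpressor libraries stood in the same order as for CPD, replicate 1 lowest and replicate 3 highest. The mean was 67.9 ± 16.1 against 18.4 ± 10.9 FPKM (SD, n = 3 each), and the log2 fold change of −1.96 (SE 0.452, 95% interval −3.06 to −0.87) just missed the threshold (limma adjusted p = 0.0523). It passed without EsANAC029-OE replicate 1 (−1.52, adjusted p = 0.0311), without replicate 3 (−2.38, adjusted p = 0.0408) and with library weights (−1.47, adjusted p = 0.0311). It did not pass without any 1 of the wild-type libraries (limma adjusted p = 0.128 to 0.189) or EsANAC029-OE replicate 2 (0.12), nor by limma-voom (0.0766).

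**Figure D2:**
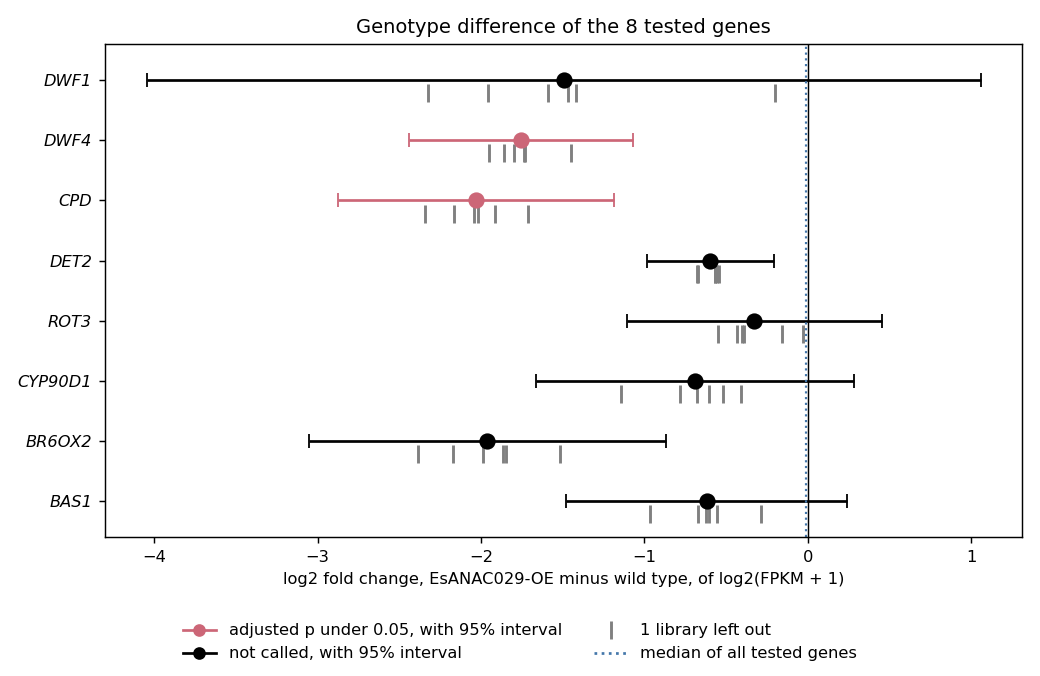
Log2 fold change of log2(FPKM + 1) (horizontal axis) for the 8 tested genes, with 95% intervals from limma, red for adjusted p under 0.05, and grey ticks for the values with 1 library left out. DWF4, CPD and BR6OX2 lie near −2 with no tick above −1.45, while the tick for DWF1 without EsANAC029-OE replicate 1 moves to −0.20.

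The DNA just before these 3 genes is shown because they have the lowest overexpressor level relative to wild type, and that before DWF1 because it holds overlapping motif matches. Each stretch is the 250 bases before the gene's annotated start, 5′ to 3′ on the gene's strand, read from the RefSeq assembly TAIR10.1, whose coordinates for these genes equal the deposited ones. The windows are chr3:18817406-18817655 (minus strand), chr5:1706949-1707198 (minus), chr3:11810476-11810725 (plus) and chr3:6882316-6882565 (minus), in TAIR10. Capitals mark matches, on either strand, to CATGTG, an E-box form bound by PIF and BES1 proteins, or to TTNCGT, a form of the NAC core.
DWF4: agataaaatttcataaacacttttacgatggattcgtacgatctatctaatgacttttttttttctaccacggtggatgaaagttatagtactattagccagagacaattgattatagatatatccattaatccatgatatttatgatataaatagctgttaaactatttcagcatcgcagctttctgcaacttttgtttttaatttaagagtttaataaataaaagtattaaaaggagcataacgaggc
CPD: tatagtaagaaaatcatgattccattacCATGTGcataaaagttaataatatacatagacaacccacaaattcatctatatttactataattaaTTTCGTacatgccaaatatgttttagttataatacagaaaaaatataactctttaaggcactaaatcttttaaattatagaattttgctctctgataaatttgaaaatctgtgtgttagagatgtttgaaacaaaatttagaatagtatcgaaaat
BR6OX2: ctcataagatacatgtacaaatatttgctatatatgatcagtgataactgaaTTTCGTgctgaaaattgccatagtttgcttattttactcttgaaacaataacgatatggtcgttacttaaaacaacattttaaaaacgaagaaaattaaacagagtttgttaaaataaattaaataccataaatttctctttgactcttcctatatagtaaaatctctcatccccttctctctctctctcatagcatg
DWF1: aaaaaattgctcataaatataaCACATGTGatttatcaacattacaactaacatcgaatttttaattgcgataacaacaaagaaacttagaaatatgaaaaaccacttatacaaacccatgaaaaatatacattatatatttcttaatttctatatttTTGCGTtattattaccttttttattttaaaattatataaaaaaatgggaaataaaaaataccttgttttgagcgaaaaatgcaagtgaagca

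CATGTG was present before 5 of the 9 genes (DWF1, CPD, DET2, CYP90D1 and BR6OX1), and before 11.1% of 27419 protein-coding genes in windows of the same length. In DWF1 the motif and its reverse complement overlap. TTNCGT stood before 4 of the 9 (DWF1, CPD, ROT3 and BR6OX2) and before 33.9% of all these genes. The G-box CACGTG and the brassinosteroid response elements CGTGTG and CGTGCG, which share the letters CGTG with one another and CGT with TTNCGT, were in none of the 9 windows, and in 6.48%, 5.37% and 1.56% of all windows. The window of DWF4 held none of these 5 motifs. Such matches describe letters only.

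DET2 is the steroid reductase between CPD and the later hydroxylations (AT2G38050, chromosome 2, 15921136 to 15922321, minus strand, 2 exons). It had 13.7, 11.5 and 13.5 FPKM in wild type and 7.79, 9.31 and 7.54 FPKM in EsANAC029-OE. The groups did not overlap, and all 3 overexpressor libraries were close together, replicate 1 included. The log2 fold change of −0.60 (SE 0.161, 95% interval −0.99 to −0.21) did not pass the test (limma adjusted p = 0.0735), and with library size alone it was −0.26 (adjusted p = 0.338). It passed with library weights (−0.58, adjusted p = 0.0439). Its last 35 bases overlap CAC3, a gene of fatty acid synthesis on the other strand that was at 112 to 124 FPKM in wild type and 47.6 to 64.9 FPKM in EsANAC029-OE. As no source read here gives the strand setting, reads of CAC3 in the overlap may count for DET2, and their part was not tested.

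DWF4 and DET2 changed places. In each wild-type library DWF4 was above DET2 per length, with a DWF4 to DET2 ratio of 1.14, 1.34 and 1.06 in replicates 1, 2 and 3. In each overexpressor library it was below, at 0.273, 0.487 and 0.702. A ratio within a library does not depend on the scaling between libraries. This pair was chosen after its values were seen, and no test was made.

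ROT3 (CYP90C1) and CYP90D1 are related hydroxylases that act on the same side chain, and each can partly replace the other. ROT3 (AT4G36380, chromosome 4) had 1.48, 1.03 and 3.14 FPKM in wild type and 1.54, 1.39 and 0.741 FPKM in EsANAC029-OE, with 40 to 139 reads per library. Wild type replicate 3 was the highest of the 6, and the groups overlapped (log2 fold change −0.33, SE 0.323, 95% interval −1.11 to 0.46, limma adjusted p = 0.546). Without wild type replicate 3 the log2 fold change of ROT3 was −0.03, without wild type replicate 2 it was −0.55, without EsANAC029-OE replicate 3 it was −0.16, and with library size alone −0.11. CYP90D1 (AT3G13730, chromosome 3) had 4.55, 4 and 3.34 FPKM in wild type and 4.74, 1.42 and 1.08 FPKM in EsANAC029-OE.

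The overexpressor libraries did not keep 1 order. Replicate 1 was the lowest of them for DWF1, DWF4, CPD, BR6OX2 and BAS1, and replicate 3 for DET2, ROT3 and CYP90D1. For CYP90D1 replicate 1 was the highest of all 6 libraries, and replicates 2 and 3 lay below all of wild type. Over all libraries the log2 fold change was −0.69 (SE 0.403, 95% interval −1.66 to 0.28, limma adjusted p = 0.312). Without EsANAC029-OE replicate 1 it was −1.14 and was called (adjusted p = 0.018), and without replicate 3 it was −0.41 (adjusted p = 0.544). The CYP90D1 to ROT3 ratio was 3.07, 3.89 and 1.06 in wild type and 3.07, 1.02 and 1.46 in EsANAC029-OE, and the groups overlapped.

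DWF1 makes campesterol, the sterol from which the pathway starts, and thereby also serves the supply of membrane sterols (AT3G19820, called DIM in the deposited table, chromosome 3, 6879524 to 6882315, minus strand). It had 101, 79.5 and 94.4 FPKM in wild type and 4.44, 103 and 61.1 FPKM in EsANAC029-OE. Replicate 1 held 275 reads where the other libraries held 3712 to 7224. Replicate 2 was above all wild-type libraries, so the overexpressor libraries spanned far more than the difference of the means (91.7 ± 11.1 and 56.1 ± 49.4 FPKM, n = 3 each).

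The log2 fold change of DWF1 was −1.49 (SE 1.06, 95% interval −4.05 to 1.06, limma adjusted p = 0.398), and −0.20 without EsANAC029-OE replicate 1 (adjusted p = 0.607) and −2.33 without replicate 2 (adjusted p = 0.22). DWF1 is among the 451 genes that lay under 10% of every other library in replicate 1. Its neighbour AT3G19810, which overlaps it by 20 bases on the same strand, was at 19.7 FPKM in that library and at 24.6 to 36.2 FPKM in the others.

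**Figure D3:**
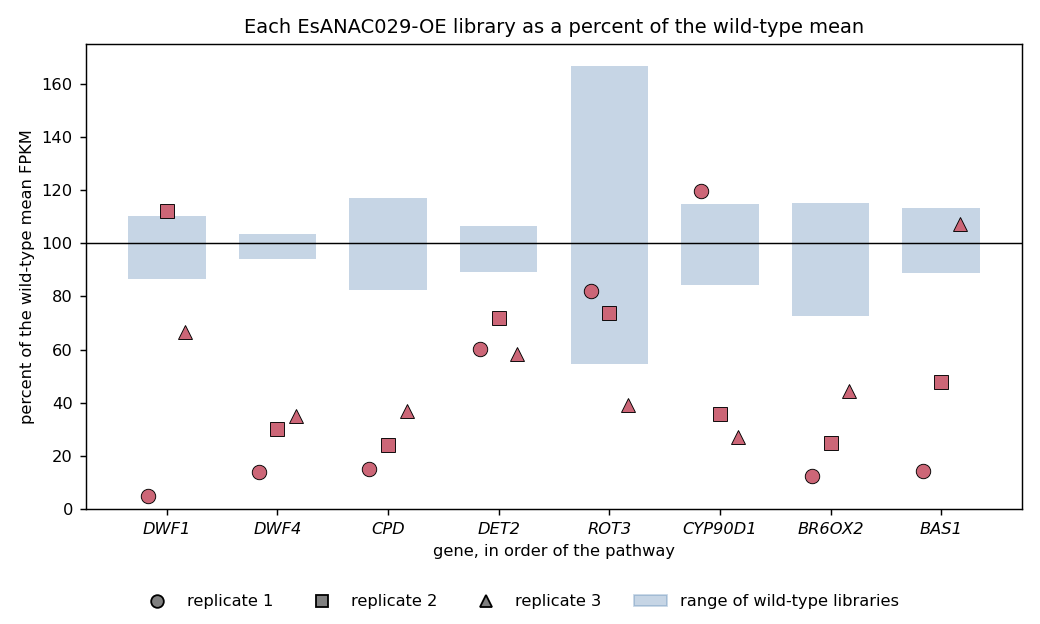
FPKM of each EsANAC029-OE library as a percent of the wild-type mean (vertical axis) for the 8 tested genes in pathway order, with blue bands for the range of the wild-type libraries. Replicate 1 is at 14.1%, 15.1% and 12.3% for DWF4, CPD and BR6OX2, at 4.84% for DWF1 and at 120% for CYP90D1, and DET2 lies at 58.3% to 72% in all 3 libraries.

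BR6OX1 (CYP85A1), the less active relative of BR6OX2, was hardly detected (AT5G38970, chromosome 5). It had 8, 5 and 6 reads in wild type and 0, 15 and 17 reads in EsANAC029-OE, or 0.196, 0.131 and 0.159 FPKM and 0, 0.281 and 0.369 FPKM. It was below the filter in all 6 libraries and was not tested. A count of 0 allows up to 3 reads, or 0.0638 FPKM in that library, and covers counting error only.

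The coding sequences of BR6OX1 and BR6OX2 are identical at 81.9% of 1398 aligned bases, the closest pair of the 7 P450 genes, whose other pairs share 60.8% to 67% of bases. How reads that match both were counted is not stated, so their values are uncertain to that extent. BR6OX2 was 390, 377 and 492 times as high as BR6OX1 per length in wild type replicates 1, 2 and 3. The factor was 60.1 and 81.5 in EsANAC029-OE replicates 2 and 3, and at least 131 in replicate 1 against the floor of 3 reads. With 5 to 17 reads of BR6OX1 per library these ratios carry a wide counting error.

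BAS1, or CYP734A1, hydroxylates active brassinosteroids and so inactivates them, and its transcript is known to rise with the hormone (AT2G26710, chromosome 2, 11380463 to 11383821, plus strand, 4 exons). It had 2.18, 1.97 and 2.51 FPKM in wild type and 0.316, 1.06 and 2.37 FPKM in EsANAC029-OE, with 16 to 118 reads per library. Replicates 1 and 2 of the overexpressor were below wild type and replicate 3 was within it. The log2 fold change was −0.62 (SE 0.356, 95% interval −1.48 to 0.24, limma adjusted p = 0.305). It was −0.28 without EsANAC029-OE replicate 1 and −0.96 without replicate 3 (adjusted p = 0.465 and 0.0967), and −1.24 by limma-voom.

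Against BAS1 within a library, neither CPD nor DWF4 separated the groups. The CPD to BAS1 ratio was 106, 95.8 and 107 in wild type and 109.6, 52.1 and 35.6 in EsANAC029-OE, and DWF4 to BAS1 was 7.19, 7.89 and 5.69 against 6.74, 4.28 and 2.23. In EsANAC029-OE replicate 1 CPD, DWF4 and BAS1 were low to a like extent, so both ratios lay at the level of wild type. In replicates 2 and 3 both ratios were below every wild-type library.

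**Figure D4:**
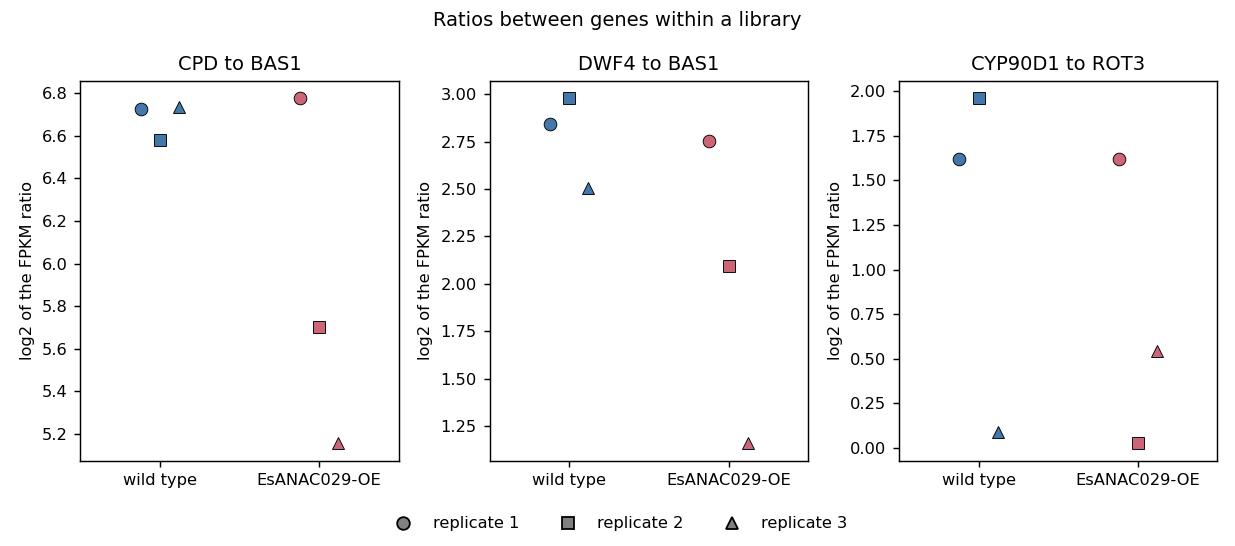
Log2 of the FPKM ratio between 2 genes within each library (vertical axes), by group, with points shaped by replicate number. For CPD to BAS1 and DWF4 to BAS1 EsANAC029-OE replicate 1 lies with wild type (6.78 and 2.75) and replicates 2 and 3 lie below, and for CYP90D1 to ROT3 the groups overlap.

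By mean level per length, the order in wild type was CPD, DWF1, BR6OX2, DWF4, DET2, CYP90D1, BAS1, ROT3 and BR6OX1. Only the neighbours BAS1 and ROT3 had overlapping library values there. In EsANAC029-OE the order was CPD, DWF1, BR6OX2, DET2, DWF4, CYP90D1, BAS1, ROT3 and BR6OX1, and all neighbours overlapped except DET2 and DWF4, and ROT3 and BR6OX1. The spread of log2(FPKM + 1) among overexpressor libraries was larger than in wild type for DWF4 (SD 0.537 against 0.0702), CPD (0.633 against 0.251), DWF1 (2.27 against 0.178), CYP90D1 (0.791 against 0.178), BR6OX2 (0.866 against 0.367) and BAS1 (0.679 against 0.121), about the same for DET2 (0.146 against 0.128), and smaller for ROT3 (0.294 against 0.531).

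The genes nearest in profile were sought among 9194 named, tested genes by the root mean square difference of centred log2(FPKM + 1) over the 6 libraries. Nearest to DWF4 were PAP8, a plastid fibrillin, TRXF1, a plastid thioredoxin, and SBE2.2, a starch branching enzyme, at distances of 0.0726, 0.0923 and 0.104. Nearest to CPD were RGI3, a leucine-rich repeat receptor kinase, PSAH1, a photosystem I subunit, and AAE8, a member of the AMP-dependent ligase family, at 0.132, 0.137 and 0.14. Nearest to BAS1 were LPAT1, a phospholipid acyltransferase, and ATC401 and ATATH8, both annotated as protein kinases in the deposited table, at 0.0708, 0.0789 and 0.0886.

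Of 9 other genes of brassinosteroid turnover 4 were tested and none was called by limma or by limma-voom, while 2 had an unadjusted p under 0.05, which 28.3% of all tested genes had. CYP72C1, a P450 that also lowers active brassinosteroids, had 1.90, 1.87 and 1.29 FPKM in wild type and 1.01, 0.969 and 0.83 FPKM in EsANAC029-OE, with no overlap (log2 fold change −0.46, SE 0.19, limma adjusted p = 0.174). UGT73C5, which glucosylates the hormones, was higher in the overexpressor without overlap (1.28 to 5.39 against 6.01 to 28 FPKM, limma adjusted p = 0.111). Its near-identical neighbour UGT73C6 was listed at 0 in all 6 libraries, so the values of UGT73C5 are uncertain. UGT73C5 and UGT73C6 are named because of their values, outside the naming rule.

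Of 10 genes that supply sterols 2 fell and none rose, beside 7.89% of all tested genes called in either direction. STE1, the desaturase also known as DWF7, went from 29.5 ± 3.82 to 13.1 ± 3.62 FPKM (log2 fold change −1.15, limma adjusted p = 0.0412), and SMT2, a sterol methyltransferase that draws precursors away to sitosterol, from 99.3 ± 2.37 to 56.6 ± 8.43 FPKM (−0.81, adjusted p = 0.0447). Neither was called by limma-voom (adjusted p = 0.055 and 0.0645), and both lost the call without any 1 of the wild-type libraries or EsANAC029-OE replicate 2 (0.0763 to 0.186), as did SMT2 without replicate 3 (0.0799). The list's median log2 fold change was −0.31, beside −0.00914 over all tested genes. With library size alone it was 0.03, beside 0.31 over all tested genes.

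Of 24 genes of perception and signalling 22 were tested, 1 rose and 1 fell, with a median of −0.14. Such a count is near the share of all tested genes that were called (4.31% higher and 3.58% lower). Both belong to the family of BZR1 and BES1. BEH3 rose from 1.93, 1.86 and 1.88 FPKM to 14.1, 8.03 and 7.77 FPKM (log2 fold change 1.88, SE 0.249, limma adjusted p = 0.0162), and BEH2 fell from 48.7 ± 0.74 to 24.4 ± 6.91 FPKM (adjusted p = 0.0451). Without any 1 of the wild-type libraries or EsANAC029-OE replicate 2 neither was called (adjusted p = 0.0525 to 0.176). With library size alone BEH2 was not called (limma adjusted p = 0.0918), 4 of the list rose, none fell, and the median was 0.20. That scaling called 2749 of all 17247 tested genes higher and 377 lower, and put their median at 0.31. BZR1 was at 14.8 ± 0.81 and 17.4 ± 1.72 FPKM (log2 fold change 0.22, limma adjusted p = 0.382). With library size alone BZR1 was called higher (0.57, adjusted p = 0.0408), beside that median of 0.31.

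BES1, its close relative, had 36.5, 31.3 and 32.2 FPKM in wild type and 4.65, 23 and 31.6 FPKM in EsANAC029-OE (limma adjusted p = 0.322). Replicate 1 was far below the other 5 libraries, as for DWF1, and replicate 3 was within the range of wild type. BRI1, the receptor, was at 45.6 ± 5.07 and 29.6 ± 11.3 FPKM (adjusted p = 0.178), and BIN2, the kinase that holds BZR1 and BES1 inactive, at 67.8 ± 3.87 and 44.1 ± 5.83 FPKM with no overlap (adjusted p = 0.0733).

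Of 11 genes known to regulate the members 7 were tested, and 5 of these were called, 3 lower (PIF4, PIF5 and CCA1) and 2 higher (COG1 and JUB1). Over all tested genes 3.58% were called lower and 4.31% higher. The list was chosen with earlier results of these data known, so its count beside these shares is no independent support. CCA1 and JUB1 passed the filter only through the group in which they are higher and so had to differ. PIF4, PIF5 and COG1 were above 1 FPKM in all 6 libraries. With no filter on low values PIF4 and PIF5 stayed called and COG1 did not (limma adjusted p = 0.0096, 0.0453 and 0.0581). The median log2 fold change over the 7 was 0.19, or −0.77 over the 6 still tested without EsANAC029-OE replicate 1. PIF4 and PIF5, bHLH factors of elongation growth that can activate brassinosteroid synthesis genes, went down from 74.1 ± 5.58 to 19.7 ± 2.95 FPKM (log2 fold change −1.87, SE 0.169, limma adjusted p = 0.00605) and from 51.8 ± 7.64 to 15.7 ± 6.57 FPKM (−1.73, adjusted p = 0.0297). Unlike DWF4 and CPD, PIF4 and PIF5 were not lowest in EsANAC029-OE replicate 1, at 23 and 22.9 FPKM there against 17.5 and 9.95 FPKM in replicate 2. COG1, a Dof factor known to act upstream of them and listed as DOF1.5, rose from 3.44 ± 0.344 to 8.53 ± 1.78 FPKM (1.09 on the log2 scale, adjusted p = 0.0328; limma-voom 0.0611). PIF4 lost its call without wild type replicate 3 (limma adjusted p = 0.0568). PIF5 and COG1 lost theirs without any 1 of the wild-type libraries or EsANAC029-OE replicate 2 (0.0717 to 0.142), and PIF5 also without replicate 3 (0.0598).

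JUB1, a NAC factor known to repress DWF4, rose from 0.255, 0.507 and 0.158 FPKM to 19.3, 4.41 and 3.49 FPKM (log2 fold change 2.61, SE 0.575, limma adjusted p = 0.0471). JUB1 passed the filter through the overexpressor libraries alone, so this p is no independent support for its rise. It was not called by limma-voom (adjusted p = 0.123) or without any 1 of the wild-type libraries (limma adjusted p = 0.141 to 0.176), and was not tested without any 1 overexpressor library. ATAF2, a NAC factor known to repress BAS1, was at 18.9 to 41.5 FPKM in wild type and 141, 71.4 and 52.6 FPKM in EsANAC029-OE (adjusted p = 0.105), and with library size alone it was called higher (1.76, adjusted p = 0.0368). CCA1, a clock factor that represses BAS1 with it, fell from 1.81 ± 0.523 to 0.236 ± 0.311 FPKM (adjusted p = 0.047; limma-voom 0.0735). It passed the filter through the wild-type libraries alone, and it was not called without EsANAC029-OE replicate 2 or 3 (0.112 and 0.0885). CES, an activator of CPD, was listed at 0 in every library, and TCP1, an activator of DWF4, was at 0 to 0.331 FPKM.

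Of 12 genes that brassinosteroids are known to induce, 1 fell and none rose, a count near the 7.89% of all tested genes that were called. The median log2 fold change was −1.20, and 4 had an unadjusted p under 0.05, which 28.3% of all tested genes had. The gene was BEE1, a bHLH factor of the early response, at 11.2, 6.71 and 8.20 FPKM in wild type and 0.311, 2.22 and 1.79 FPKM in EsANAC029-OE (log2 fold change −2.07, SE 0.384, limma adjusted p = 0.0333; limma-voom 0.0629). It was not called without any 1 library other than EsANAC029-OE replicate 1 (0.0535 to 0.137). Without EsANAC029-OE replicate 1 the list's median was −0.48 and 3 genes fell. In that fit 1597 of all 16795 tested genes were called lower, and their median was −0.0293. PRE1, a small growth-promoting HLH protein, and KCS1, an elongase of wax synthesis, both singled out after their values were seen, had log2 fold changes of −2.75 and −3.49 and did not pass (adjusted p = 0.0673 and 0.0509).

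**Figure D5:**
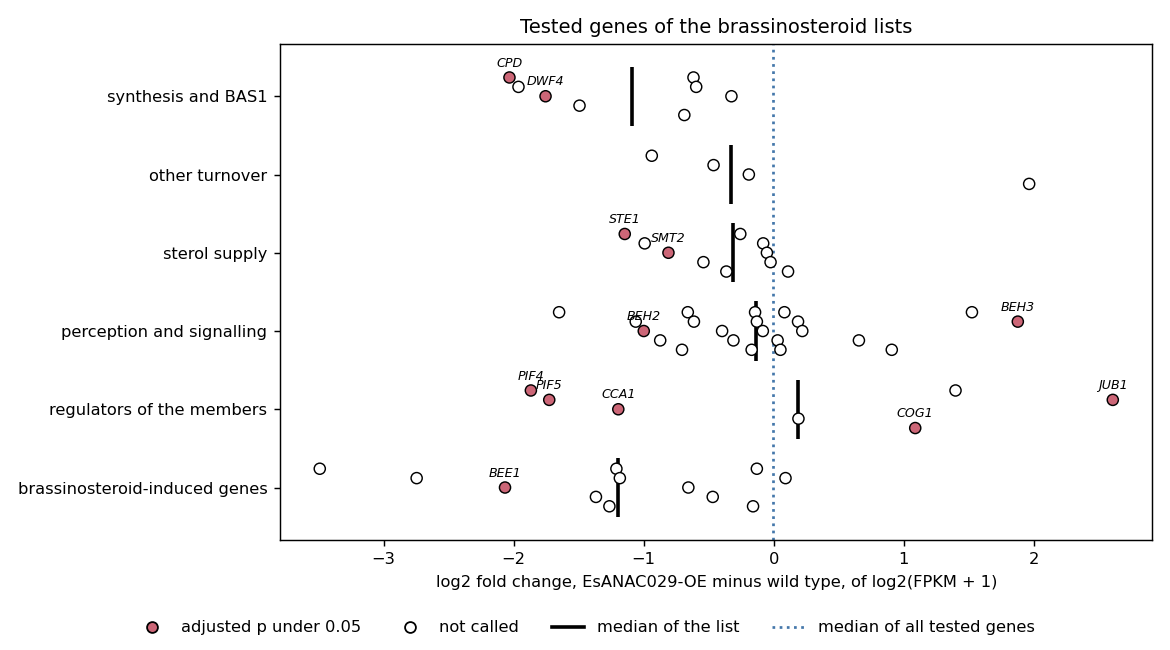
Log2 fold change of log2(FPKM + 1) (horizontal axis) for every tested gene of the 9 members and of the 5 brassinosteroid lists, red for adjusted p under 0.05, with black bars at list medians and a dotted line at the median of all tested genes. The medians are −1.09 for synthesis and BAS1 and −1.20 for hormone-induced genes, against −0.14 for perception and signalling.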

How the data were processed

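Messenger RNA was measured in 3 wild-type and 3 EsANAC029-OE libraries, grouped by the titles in the labels. The submitters' processing notes name TAIR10, HISAT2, CASAVA 1.8 and edgeR, without the step of each. How reads were counted, with which strand setting and annotation release, is not stated in the sources read here. The deposited table's header names no unit. Its values were taken as FPKM, because value times the deposited gene length (in bases, an other unit) came out as whole reads once divided by a constant of each library (100% of values, tolerance 1e-06).

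Values were transformed as log2(FPKM + 1), so fold changes of low genes are understated. The test was limma 3.58.1 under R 4.3.3, with genotype as the 1 term (trended variance, two-sided, Benjamini-Hochberg over 17221 genes). The test was also run on simulated reads, with a common spread for all genes and no outlying library. These data differ in both respects, so that run does not measure how the test performs here. Same-numbered libraries had deviations from their group means correlated at −0.199, −0.0531 and −0.105, and other pairs at −0.318 to 0.36. With 3 libraries per group these values cannot show whether equal numbers mark paired libraries, which is not stated. Coding sequences and windows came from RefSeq (TAIR10.1), where 32532 of 32962 loci had identical coordinates, with Biopython 1.88.

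The members and lists were chosen with earlier results of these data known. Genes named are the 9 members, up to 4 called genes of each list with the smallest p, 11 further genes whatever their values, and 3 nearest profiles each of DWF4, CPD and BAS1. Alternatives were other scalings, filters, a pseudocount of 0.1, a replicate block, limma-voom, library weights, a threshold of 0.01 and leaving out each library.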

Additional observations from a re-analysis of the deposited data

How the results depend on the processing

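The negative sign of all 8 tested members held in each of 15 alternatives, and none of the fitted fold changes of single genes recomputed under them changed sign. The stricter threshold, the other filters and the replicate block leave these fold changes as in the main fit. Their signs were therefore fixed in advance, and only the remaining alternatives could have changed them. The count of members called lower (2) was 0 under the replicate block and at adjusted p under 0.01, 5 with library weights, and 0 to 4 with 1 library left out; no member was called higher in any of them. Over all genes, 743 higher and 616 lower became 2749 and 377 with library size alone, 460 and 359 with no filter on low values, 13 and 3 with the replicate block, 421 and 317 with limma-voom, 1421 and 1552 with library weights, and 83 and 34 at adjusted p under 0.01. With 1 library left out they ranged from 48 to 1151 higher and from 11 to 1597 lower, highest in both without EsANAC029-OE replicate 1. Under the replicate block DWF4 and CPD had adjusted p of 0.0839 and 0.0784.

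Of the lists, sterol supply (2 called) had 0 with library size alone, no filter, the replicate block, limma-voom and adjusted p under 0.01, 1 with upper-quartile factors, and 0 to 3 with 1 library left out. Perception and signalling (2) had 4 with library size alone, 1 with no filter or limma-voom, 0 with the replicate block or the stricter threshold, 6 with library weights, and 0 to 5 with 1 left out. The regulators (5) had 2 with no filter or limma-voom, 0 with the replicate block, 1 at the stricter threshold, and 0 to 4 with 1 left out. Hormone-induced genes (1) had 0 with no filter, a pseudocount of 0.1, the replicate block, limma-voom or the stricter threshold, 3 with library weights, and 0 to 3 with 1 left out. Other turnover genes had 0 throughout. The causes were not tested, except that fewer libraries or a block leave fewer degrees of freedom. With 1 library left out, the group difference of the log2 ratios ranged from −1.25 to −0.44 for CPD to BAS1, −1.15 to −0.35 for DWF4 to BAS1, −1.06 to −0.12 for CYP90D1 to ROT3 and −1.69 to −1.01 for DWF4 to DET2. BR6OX2 to BR6OX1 has no such value, as BR6OX1 is at 0 in EsANAC029-OE replicate 1. Depth limits BR6OX1 most, then BAS1 and ROT3.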
